A study of Mus musculus with 49 samples.

Results

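The effect of Elf4 W250S on gene expression was compared between pathogenic and non-pathogenic Th17 cultures, gene by gene. The members were the genes listed in both deposited Th17 tables, 18892 genes of the 20179 in either table (19528 in the pathogenic and 19543 in the non-pathogenic table), and 12 of the 49 samples of the series hold their values. Of the 18892 genes, 13074 had at least 1 CPM (the authors' unit, read counts scaled to library size) in at least 3 of the 12 libraries and were tested, and 5818 lay below that level. All cells came from C57BL/6 mice. The 4 groups were W250S and WT cells of the pathogenic Th17 culture, given IL-6, IL-23 plus IL-1b, and W250S and WT cells of the non-pathogenic Th17 culture, given IL-6 plus TGF-beta. Each group was taken at 48 h and had 3 libraries. W250S is the labelled genotype, an amino acid substitution of tryptophan by serine in Elf4, and the labels name no other allele or agent. Polyadenylated RNA of whole cultures was sequenced, so that a change in the share of a cell type and a change in RNA per cell cannot be told apart. The descriptions give 1 library of each culture the same source number, 6 sources in all, but the table columns do not say which source they hold. In the account below libraries are numbered by column, these numbers pair nothing, and the 12 libraries were treated as independent. Whether the sources are separate animals is not stated, so p-values measure the spread between these libraries.

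Elf4 is an X-linked member of the ETS family of transcription factors, which bind a GGAA core through the ETS domain, and it is known for keeping CD8 T cells quiescent and for a part in interferon induction. Th17 cells are CD4 T cells that make IL-17A and IL-17F. IL-6 with TGF-beta gives cells of low pathogenicity in mouse models, while IL-23 and IL-1 beta give cells that cause tissue inflammation. The comparison asks whether the substitution acts alike in both cultures: the W250S minus WT difference was taken in each, as log2(CPM + 1), and the pathogenic difference minus the non-pathogenic one is the interaction.

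Promoters are shown for 7 genes of the text, picked because 1 of 3 motifs lies at their starts. The sequences are RefSeq's (GRCm38.p6), from 250 bases before to 50 bases after the gene start. Of the 13074 tested genes 8278 had an entry. The motifs, searched on both strands, were the ETS site CCGGAAGT, the interferon-stimulated response element (GAAA, any 2 bases, then GAAA), and the amino acid response element TGATGNAA, which ATF4 binds. Capitals mark the match, which in these 7 promoters overlaps no match of another of the 3 motifs. Ctss (chr3:95526536-95526835, + strand), Stat2 (chr10:128270248-128270547, + strand) and Gbp5 (chr3:142496684-142496983, + strand) passed the test as lower in W250S in both cultures and hold the interferon-stimulated response element, on the minus strand in Stat2 and Gbp5. Trib3 (chr2:152344011-152344310, - strand), Asns (chr6:7693160-7693459, - strand) and Chac1 (chr2:119350992-119351291, + strand) passed as lower in non-pathogenic W250S cells and hold TGATGNAA, which in Trib3 and Chac1 reads as its complement. Myl12b (chr17:70990467-70990766, - strand) was lower in both cultures and holds CCGGAAGT. Other genes of the text had an entry with no match to any of the 3 motifs, among them Egfr, Ptgir, Ehd3, Rxra, Il1a and Gpt2. Cd5l, which was higher in both cultures, also holds TGATGNAA.
Ctss: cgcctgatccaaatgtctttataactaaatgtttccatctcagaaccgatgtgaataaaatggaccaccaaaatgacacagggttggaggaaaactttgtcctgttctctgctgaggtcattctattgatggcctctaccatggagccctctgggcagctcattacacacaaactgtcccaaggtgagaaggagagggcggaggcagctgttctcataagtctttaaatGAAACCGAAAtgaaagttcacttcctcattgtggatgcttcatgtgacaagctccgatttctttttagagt
Stat2: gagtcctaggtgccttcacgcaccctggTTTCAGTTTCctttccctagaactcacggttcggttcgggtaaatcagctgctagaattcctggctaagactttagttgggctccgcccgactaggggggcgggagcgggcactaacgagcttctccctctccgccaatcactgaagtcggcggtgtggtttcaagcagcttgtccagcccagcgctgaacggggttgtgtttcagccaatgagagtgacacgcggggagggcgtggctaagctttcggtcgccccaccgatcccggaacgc
Gbp5: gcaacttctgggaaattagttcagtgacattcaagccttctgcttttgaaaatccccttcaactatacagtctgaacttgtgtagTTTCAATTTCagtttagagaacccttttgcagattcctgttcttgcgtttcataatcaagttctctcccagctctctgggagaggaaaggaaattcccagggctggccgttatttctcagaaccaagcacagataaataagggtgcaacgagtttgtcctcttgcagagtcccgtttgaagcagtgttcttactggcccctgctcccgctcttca
Trib3: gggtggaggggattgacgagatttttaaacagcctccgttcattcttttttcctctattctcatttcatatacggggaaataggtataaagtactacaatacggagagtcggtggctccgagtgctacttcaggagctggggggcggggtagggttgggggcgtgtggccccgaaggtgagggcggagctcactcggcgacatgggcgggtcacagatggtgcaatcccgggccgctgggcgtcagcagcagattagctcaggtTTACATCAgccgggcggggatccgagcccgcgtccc
Asns: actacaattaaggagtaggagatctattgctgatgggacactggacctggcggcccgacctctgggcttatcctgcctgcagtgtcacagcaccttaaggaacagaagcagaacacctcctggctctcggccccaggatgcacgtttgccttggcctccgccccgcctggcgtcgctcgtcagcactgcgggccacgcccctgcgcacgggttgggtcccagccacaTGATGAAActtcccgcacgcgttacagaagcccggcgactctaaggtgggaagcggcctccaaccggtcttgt
Chac1: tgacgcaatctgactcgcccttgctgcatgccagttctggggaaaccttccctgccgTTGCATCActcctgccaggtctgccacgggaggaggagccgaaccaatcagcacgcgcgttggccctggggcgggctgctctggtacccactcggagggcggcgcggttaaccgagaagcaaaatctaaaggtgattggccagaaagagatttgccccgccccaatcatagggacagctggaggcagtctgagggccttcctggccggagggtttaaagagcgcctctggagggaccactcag
Myl12b: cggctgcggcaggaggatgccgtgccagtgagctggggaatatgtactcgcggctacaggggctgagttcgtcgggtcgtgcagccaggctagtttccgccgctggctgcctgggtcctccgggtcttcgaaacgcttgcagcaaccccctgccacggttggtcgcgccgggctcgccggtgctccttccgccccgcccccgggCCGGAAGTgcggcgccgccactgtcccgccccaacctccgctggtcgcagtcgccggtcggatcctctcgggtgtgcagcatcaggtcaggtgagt
The ETS site CCGGAAGT was found at 1 of 53 genes with a promoter that were called higher in both cultures (1.89%), at 3 of 45 called lower in both (6.67%), at 10.5% of all tested genes with a promoter and at 4.31% of all genes in the table. The interferon-stimulated response element was found at 2 of 53 genes called higher in both (3.77%), at 7 of 45 called lower in both (15.6%), at 3.74% of all tested genes and at 3.99% of all genes in the table. Among those 7 were Trim34a, Trim12a and Trim12c, neighbours of 1 gene family on chromosome 7, which are not separate observations. TGATGNAA was found at 9 of 24 ATF4 target genes with a promoter (37.5%), at 5 of 53 genes called higher in both (9.43%), at 3 of 45 called lower in both (6.67%), at 2.63% of all tested genes and at 4.51% of all genes in the table. These shares describe letters in a window and say nothing of binding.

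The listed genes were backed by 25.3 to 37.6 M reads per library, read from the spacing of the smallest values. All 10 CD4 T cell markers were tested, with a summed level of 1390 to 1419 CPM in pathogenic W250S, 1449 to 1537 CPM in pathogenic WT, 1584 to 1646 CPM in non-pathogenic W250S and 1462 to 1672 CPM in non-pathogenic WT libraries. Of 55 markers of other cell types 15 were in both tables, and 11 of these were below 1 CPM in every library. The 4 tested ones were Cd74, H2-Ab1, Cd68 and Cd8b1. Cd74, the invariant chain of antigen-presenting cells, passed as lower in non-pathogenic W250S cells (-0.43, limma adjusted p = 0.0307) and stood at -0.50 in pathogenic ones (adjusted p = 0.0541). H2-Ab1, Cd68 and Cd8b1 stood at -0.30, -0.38 and -0.25 in non-pathogenic cells and at 0.05, -0.12 and -0.23 in pathogenic ones, and passed in neither. The first principal component (33.2% of variance) followed genotype, with pathogenic W250S library 2, at -0.39, nearest to the WT side, and the second (20.5%) followed culture. Pathogenic WT library 3 (12.7) and non-pathogenic WT library 1 (-11.3) stood apart at opposite ends of the third component, where the others lay between -5.75 and 5.54. Non-pathogenic WT library 1 also had 61.2 CPM of the small nuclear RNA gene Rn7sk against 11.5 to 24.5 CPM elsewhere. Results that turn on either library are given without it; without pathogenic WT library 3 the pathogenic calls counted below were 270 in place of 264. Elf4 itself (chrX:48411049-48463132) had 86.0, 87.9 and 85.4 CPM in pathogenic W250S libraries and 81.8, 79.4 and 81.5 CPM in pathogenic WT libraries, then 91.9, 94.8 and 102 CPM in non-pathogenic W250S and 80.5, 87.9 and 88.3 CPM in non-pathogenic WT libraries. The groups did not overlap in either culture, yet Elf4 did not pass the limma test in the pathogenic (log2 difference 0.09, SE 0.05, adjusted p = 0.35) or the non-pathogenic culture (0.17, SE 0.06, adjusted p = 0.115). A substitution need not change its transcript level, so this does not check the genotype labels, and the substituted base itself cannot be read from these tables.

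W250S changed gene expression in both cultures, and the genes that passed in both moved the same way. In pathogenic cells 264 genes passed (2.02% of those tested), 114 of them higher in W250S (0.872%) and 150 lower (1.15%). In non-pathogenic cells 892 passed (6.82%), 518 higher (3.96%) and 374 lower (2.86%). The W250S and WT libraries did not overlap for 3181 genes in pathogenic (24.3%) and 4110 genes in non-pathogenic cells (31.4%). Passing in both were 133 genes (1.02%), 73 higher (0.558%) and 60 lower (0.459%), and none in opposite directions. They make 50.4% of the pathogenic and 14.9% of the non-pathogenic calls; both comparisons draw on the same 6 sources, so the overlap is a description. The larger non-pathogenic count is not a tested difference: for the interaction limma called 0 of 13074 genes (0%), with 1217 genes at an unadjusted p below 0.05 (9.31%), and the lowest adjusted p was 0.534. The count of 1217 also turned on single libraries. It was 674 without pathogenic WT library 3, 798 without non-pathogenic WT library 1 and 2139 without non-pathogenic WT library 2. These counts rest on single libraries: leaving each out in turn gave 42 to 365 pathogenic calls, the lowest without W250S library 3, with 64 without W250S library 1 and 95 without WT library 1. It gave 54 to 2139 non-pathogenic calls: 54, 91 and 364 without W250S library 2, 1 and 3, and 61 and 2139 without WT library 3 and 2; without WT library 1, which stood apart, it was 1159, 520 higher and 639 lower. Of the 57 pathogenic and 98 non-pathogenic calls named by rule, 33 lost the call without pathogenic W250S library 3 and 73 without non-pathogenic W250S library 2. For the 133 shared genes the range was 25 to 176, with 25, 27, 36, 33, 46 and 62 without non-pathogenic W250S library 2, WT library 3 and W250S library 1, and pathogenic W250S library 3, W250S library 1 and WT library 1. Rescaling the libraries by median ratios gave 1710 non-pathogenic calls, 805 higher and 905 lower, so that the larger side of the split depends on the scaling.

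**Figure D1:**
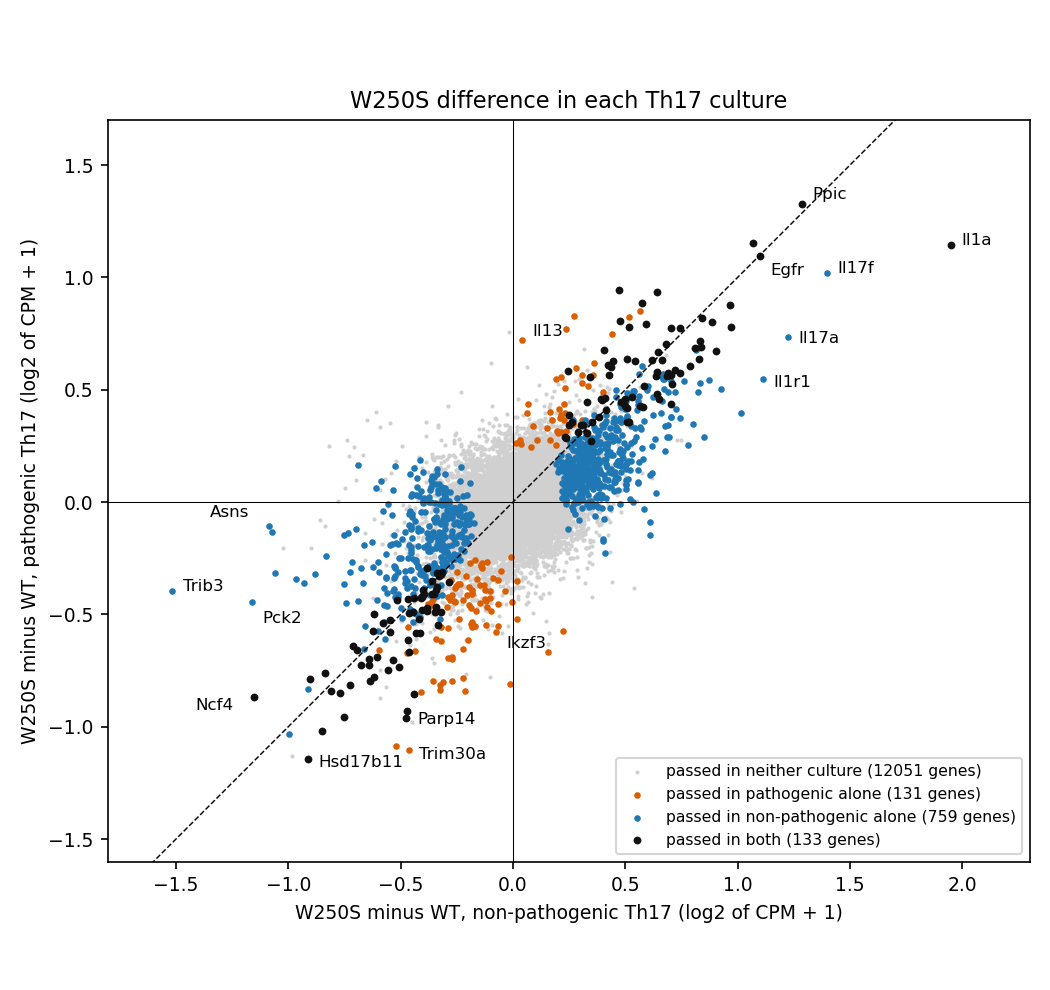
Each point is 1 of 13074 tested genes; the vertical axis is the W250S minus WT difference in pathogenic and the horizontal axis that in non-pathogenic Th17 cells, both as log2(CPM + 1), and the dashed line marks equal differences. The 133 genes that passed in both cultures (black) lie at the upper right or the lower left, most of them near the line. Il1a is among those further off, with the larger difference in the non-pathogenic culture. Trib3, Pck2 and Asns lie far to the left of the line.

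The size of the effect was close in both cultures for the genes that passed in both. Over the 73 higher genes the median difference was 0.57 in pathogenic and 0.56 in non-pathogenic cells, beside 0.0055 and 0.035 over all genes, and for 62 of the 73 the interaction was within 0.2 of 0 on the log2 scale. Over the 60 lower genes the medians were -0.54 and -0.46, with 51 of 60 within 0.2. Selection on both tests favours such likeness, so it is a description. Among the 131 genes that passed in pathogenic cells alone, the 41 higher ones had medians of 0.40 in pathogenic and 0.21 in non-pathogenic cells, and the 90 lower ones -0.45 and -0.20. Among the 759 that passed in non-pathogenic cells alone, the 445 higher ones had medians of 0.18 in pathogenic and 0.36 in non-pathogenic cells, and the 314 lower ones -0.16 and -0.36. The genes called in 1 culture alone also had a median in the same direction in the other culture. Passing in 1 culture and not in the other favours a larger difference in the first. The unequal medians are therefore a description and do not show that the effect depends on the culture.

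Among the genes higher in W250S in both cultures were Ppic, Egfr, Pdgfb and Il1a. Ppic, which encodes the secretory-pathway prolyl isomerase cyclophilin C, had 16.5, 13.3 and 17.4 CPM in pathogenic W250S against 4.43, 6.24 and 6.43 CPM in pathogenic WT libraries. In the non-pathogenic culture Ppic had 10.8, 10.2 and 10.2 CPM in W250S against 4.05, 4.74 and 2.50 CPM in WT libraries. Every W250S library lay above every WT library of its culture, and the log2 difference was 1.33 (SE 0.13, limma adjusted p = 0.00185) in pathogenic and 1.29 (SE 0.15, adjusted p = 0.00191) in non-pathogenic cells. Egfr, the receptor of epidermal growth factor, had 26.3, 20.7 and 26.2 CPM in pathogenic W250S against 8.57, 11.7 and 12.6 CPM in WT libraries. Egfr had 28.5, 23.7 and 23.9 CPM in non-pathogenic W250S against 11.0, 13.2 and 9.84 CPM in WT libraries. Its difference was 1.10 in each culture (SE 0.13 and 0.11, adjusted p = 0.00263 and 0.00044), with no overlap. Pdgfb, the B chain of platelet-derived growth factor, had 146, 121 and 151 CPM in pathogenic W250S against 78.5, 80.0 and 75.6 CPM in WT libraries. Pdgfb had 121, 112 and 97.6 CPM in non-pathogenic W250S against 65.7, 64.9 and 52.9 CPM in WT libraries. Neither culture showed overlap, and the differences were 0.82 and 0.84 (SE 0.08 and 0.09, adjusted p = 0.00185 and 0.00132).

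Il1a, the alarmin cytokine IL-1 alpha, was the largest change in non-pathogenic cells among the shared genes named here. It had 8.41, 5.23 and 9.46 CPM in pathogenic W250S against 1.76, 4.15 and 2.98 CPM in WT libraries. Il1a had 7.85, 9.81 and 6.45 CPM in non-pathogenic W250S against 1.22, 1.94 and 0.895 CPM in WT libraries. W250S libraries were higher in both cultures without overlap, by 1.15 (SE 0.22, adjusted p = 0.0283) and 1.95 (SE 0.17, adjusted p = 0.000227); the pathogenic call is lost without any 1 of 3 libraries (adjusted p = 0.0722, 0.124 and 0.175 without WT library 1, W250S library 1 and W250S library 3). Cd5l, a regulator of lipid metabolism known to restrain pathogenicity in mouse Th17 cells, rose by 1.15 in pathogenic and 1.07 in non-pathogenic W250S cells (adjusted p = 0.00263 and 0.0237). Ptgir, the prostacyclin receptor, rose by 0.78 and 0.97 (adjusted p = 0.00185 and 0.000227), and Crtam, an adhesion receptor of activated T cells, by 0.72 and 0.83 (adjusted p = 0.00516 and 0.00309). Rxra, a nuclear receptor for retinoids, rose by 0.78 and 0.75 (adjusted p = 0.00277 in each). The endocytic ATPase genes Ehd2 (0.67 and 0.90) and Ehd3 (0.69 and 0.84), the scaffold gene Dlg2 (0.69 and 0.81) and Lum, which encodes the matrix proteoglycan lumican (0.80 and 0.88), complete the 12 named higher genes. Over the alternatives run, the largest adjusted p was 0.133 for Cd5l in non-pathogenic cells, without W250S library 2, 0.203 for Ehd2 and 0.0748 for Lum in pathogenic cells, both without W250S library 3, and 0.0687 for Dlg2 in non-pathogenic cells, without W250S library 2. Of these 12, Ppic, Egfr, Ptgir, Pdgfb, Crtam, Ehd3 and Rxra passed in both cultures under every alternative run, leaving out single libraries included.

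Among the genes lower in W250S in both cultures were Prr13, Pkp3 and Ctss. Prr13, which encodes a small proline-rich protein, had 18.3, 26.1 and 22.7 CPM in pathogenic W250S against 38.7, 41.2 and 37.2 CPM in WT libraries. Prr13 had 22.2, 22.4 and 23.6 CPM in non-pathogenic W250S against 41.2, 45.9 and 43.2 CPM in WT libraries. The groups were apart in both cultures, and the differences were -0.79 (SE 0.11, limma adjusted p = 0.00558) and -0.90 (SE 0.07, adjusted p = 0.000162). Pkp3, the desmosome protein plakophilin 3, fell by 0.84 in pathogenic and by 0.81 in non-pathogenic W250S cells (adjusted p = 0.00212 and 0.00191). Prr13 and Pkp3 were the lower genes of the 12 named that passed in both cultures under every alternative run. Myl12b, a myosin regulatory light chain, fell by 0.81 and 0.72 (adjusted p = 0.00587 and 0.00927), and Ctss, the lysosomal protease cathepsin S, fell by 0.96 and 0.47 (adjusted p = 0.00558 and 0.0427). Gimap7, a GTPase of lymphocytes, fell by 0.57 and 0.62 (adjusted p = 0.0208 and 0.00816) and the G protein-coupled receptor gene P2ry10 by 0.69 and 0.61 (adjusted p = 0.0233 and 0.0415). Hsd17b11, a steroid dehydrogenase of lipid droplets, Anxa4, a calcium-binding annexin, and Ncf4, a subunit of the phagocyte NADPH oxidase, passed in both, at -1.14, -1.02 and -0.87 in pathogenic and -0.91, -0.85 and -1.15 in non-pathogenic cells. Over the alternatives run, the largest adjusted p was 0.0788 for Myl12b, 0.189 for Ctss, 0.196 for P2ry10 and 0.0758 for Gimap7 in non-pathogenic cells, each without W250S library 2, and 0.153 for P2ry10 and 0.131 for Gimap7 in pathogenic cells, each without W250S library 3. Ctss and Ncf4 are also expressed by myeloid cells. The summed level of the macrophage and monocyte markers, 6 of 8 of which were in both tables, was 1.14 to 1.51 CPM in pathogenic W250S, 1.32 to 1.83 CPM in pathogenic WT, 0.863 to 1.17 CPM in non-pathogenic W250S and 1.69 to 1.78 CPM in non-pathogenic WT libraries. For the dendritic cell markers, 3 of 7, it was 5.56 to 7.44 CPM in pathogenic W250S, 7.01 to 9.46 CPM in pathogenic WT, 4.03 to 5.23 CPM in non-pathogenic W250S and 5.47 to 6.90 CPM in non-pathogenic WT libraries. Both sums were lower in non-pathogenic W250S without overlap and overlapped in the pathogenic culture; no marker in the tables was at 0 in every library. Their part in the lower genes, and in the interferon-stimulated genes below, was not tested.

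Genomic position was looked up for 12188 tested genes, of which 132 passed in both cultures (1.08%). Chromosome X, which carries Elf4, held 3 of its 526 tested genes (0.57%), and shares on the other chromosomes with a call ran from 0.444% to 1.82%. The largest runs of shared genes less than 500000 bases apart were Trim34a, Trim12a and Trim12c on chromosome 7, all lower, and Bcl2a1d, Bcl2a1a and Bcl2a1b on chromosome 9, all higher. The members of each run belong to 1 gene family; how far the counting split reads among them was not tested, so they are not given as separate observations. Trim30a and Trim30d, from the same stretch of chromosome 7, passed as lower in pathogenic cells (-1.10 and -1.09, limma adjusted p = 0.0231 and 0.0346). They did not pass in non-pathogenic cells (-0.46 and -0.52, adjusted p = 0.139 and 0.0985). Without pathogenic W250S library 3 the Trim30a call was lost (adjusted p = 0.151). Over the alternatives run, the largest pathogenic adjusted p was 0.197 for Trim30d. For Trim34a, Trim12a and Trim12c it was 0.192, 0.0606 and 0.154 in pathogenic cells. In non-pathogenic cells it was 0.155, 0.147 and 0.13 for these.

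The genes that define Th17 cells gave positive W250S differences for IL-17 and the IL-1 receptor in both cultures, and passed in the non-pathogenic one. Il17f had 28.4, 28.5 and 56.3 CPM in pathogenic W250S against 12.5, 24.4 and 16.3 CPM in WT libraries. Il17f had 58.5, 68.1 and 41.9 CPM in non-pathogenic W250S against 20.6, 28.3 and 14.2 CPM in WT libraries. The groups did not overlap in either culture; the differences were 1.02 (SE 0.26, limma adjusted p = 0.0692) in pathogenic and 1.40 (SE 0.21, adjusted p = 0.00538) in non-pathogenic cells, with an interaction of -0.38 (95% interval -1.22 to 0.46). Il17a had 2.85, 3.63 and 8.38 CPM in pathogenic W250S against 2.02, 3.21 and 1.86 CPM in WT, which overlapped, and 11.9, 8.25 and 5.72 CPM in non-pathogenic W250S against 3.04, 3.44 and 2.50 CPM in WT libraries, which did not. The Il17a differences were 0.74 (SE 0.27, adjusted p = 0.178) and 1.22 (SE 0.19, adjusted p = 0.00687), with an interaction of -0.49 (-1.31 to 0.34). Without non-pathogenic W250S library 2 the non-pathogenic calls are lost (Il17f adjusted p = 0.0637, Il17a adjusted p = 0.0665), and Il17a also without WT library 3 (adjusted p = 0.05). The intervals of both interactions hold 0 as well as a difference of over 1 log2 unit.

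Il1r1, the receptor of the IL-1 in the pathogenic mix, had 2.29, 2.08 and 3.10 CPM in pathogenic W250S against 1.43, 1.80 and 0.946 CPM in WT libraries. Il1r1 had 7.56, 9.76 and 8.79 CPM in non-pathogenic W250S against 3.08, 4.76 and 2.79 CPM in WT libraries. W250S lay above WT in both cultures, and the non-pathogenic difference of 1.11 (SE 0.15, adjusted p = 0.00309) passed while the pathogenic 0.55 (SE 0.15, adjusted p = 0.0907) did not; the interaction was -0.56 (-1.06 to -0.06, unadjusted p = 0.0294, adjusted p = 0.534). Il23r, the receptor of IL-23, had 1.45, 0.907 and 1.5 CPM in pathogenic W250S against 1.68, 2.10 and 1.96 CPM in WT libraries. Il23r had 4.19, 5.47 and 5.17 CPM in non-pathogenic W250S against 3.32, 4.68 and 3.33 CPM in WT libraries. It was below WT in the pathogenic libraries without overlap, and above WT with overlap in the non-pathogenic ones. Neither difference passed (-0.36, SE 0.13, adjusted p = 0.172 and 0.32, SE 0.13, adjusted p = 0.14), nor did the interaction of -0.68 (-1.09 to -0.27, unadjusted p = 0.0029, adjusted p = 0.534). Ccr6, the receptor that guides Th17 cells to tissue, rose in both, by 0.61 and 0.79 (adjusted p = 0.0388 and 0.0137), a call lost in pathogenic cells without W250S library 3 (adjusted p = 0.197) and in non-pathogenic cells without W250S library 2 (adjusted p = 0.0917). Il6st, the shared gp130 chain of the IL-6 receptor, rose by 0.29 in non-pathogenic W250S cells (adjusted p = 0.0238), with 0.0016 in pathogenic cells. Of 17 tested Th17 receptor genes, 1 rose in pathogenic and 3 in non-pathogenic W250S cells, where 0.872% and 3.96% of all genes did, and none fell. All gene lists of this text were chosen with earlier results of these data known. Their counts beside the share of all genes are therefore a description. Without WT library 1, WT library 3, W250S library 1 or W250S library 3 the pathogenic count was 0, and without WT library 3, W250S library 1 or W250S library 2 the non-pathogenic count was 1.

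Il2, the T cell growth cytokine, had 140, 91.9 and 137 CPM in pathogenic W250S against 68.6, 82.3 and 103 CPM in WT libraries. Il2 had 92.7, 80.0 and 67.1 CPM in non-pathogenic W250S against 48.9, 47.9 and 36.4 CPM in WT libraries. The pathogenic groups overlapped (0.53, SE 0.16, adjusted p = 0.116), and Il2 rose in non-pathogenic W250S cells without overlap (0.83, SE 0.12, adjusted p = 0.00529; adjusted p = 0.0599 without W250S library 2). Il21, a cytokine that Th17 and follicular helper cells make, went the other way: it had 83.2, 97.0 and 91.2 CPM in pathogenic W250S against 120, 116 and 140 CPM in WT libraries. Il21 had 125, 125 and 128 CPM in non-pathogenic W250S against 130, 149 and 155 CPM in WT libraries. Il21 fell in the pathogenic culture by 0.46 (SE 0.08, adjusted p = 0.018), a call lost without W250S library 1 (adjusted p = 0.092) or W250S library 3 (adjusted p = 0.112), and stood at -0.20 (SE 0.07, adjusted p = 0.0912) in the non-pathogenic one. Tnf rose by 0.56 in non-pathogenic W250S cells (adjusted p = 0.0146), with 0.34 in pathogenic cells (adjusted p = 0.0769). Of 10 tested Th17 cytokine genes 1 fell in pathogenic W250S cells, where 1.15% of all genes did, and 4 rose in non-pathogenic ones, where 3.96% did. The 4 became 0 without non-pathogenic W250S library 2 and 2 without WT library 3. Csf2, which encodes GM-CSF, did not pass, at -0.25 and -0.13 (adjusted p = 0.408 and 0.553). Il22 and Ccl20 lay below the level tested, and Ifng and Il10 were not analysed here.

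**Figure D2:**
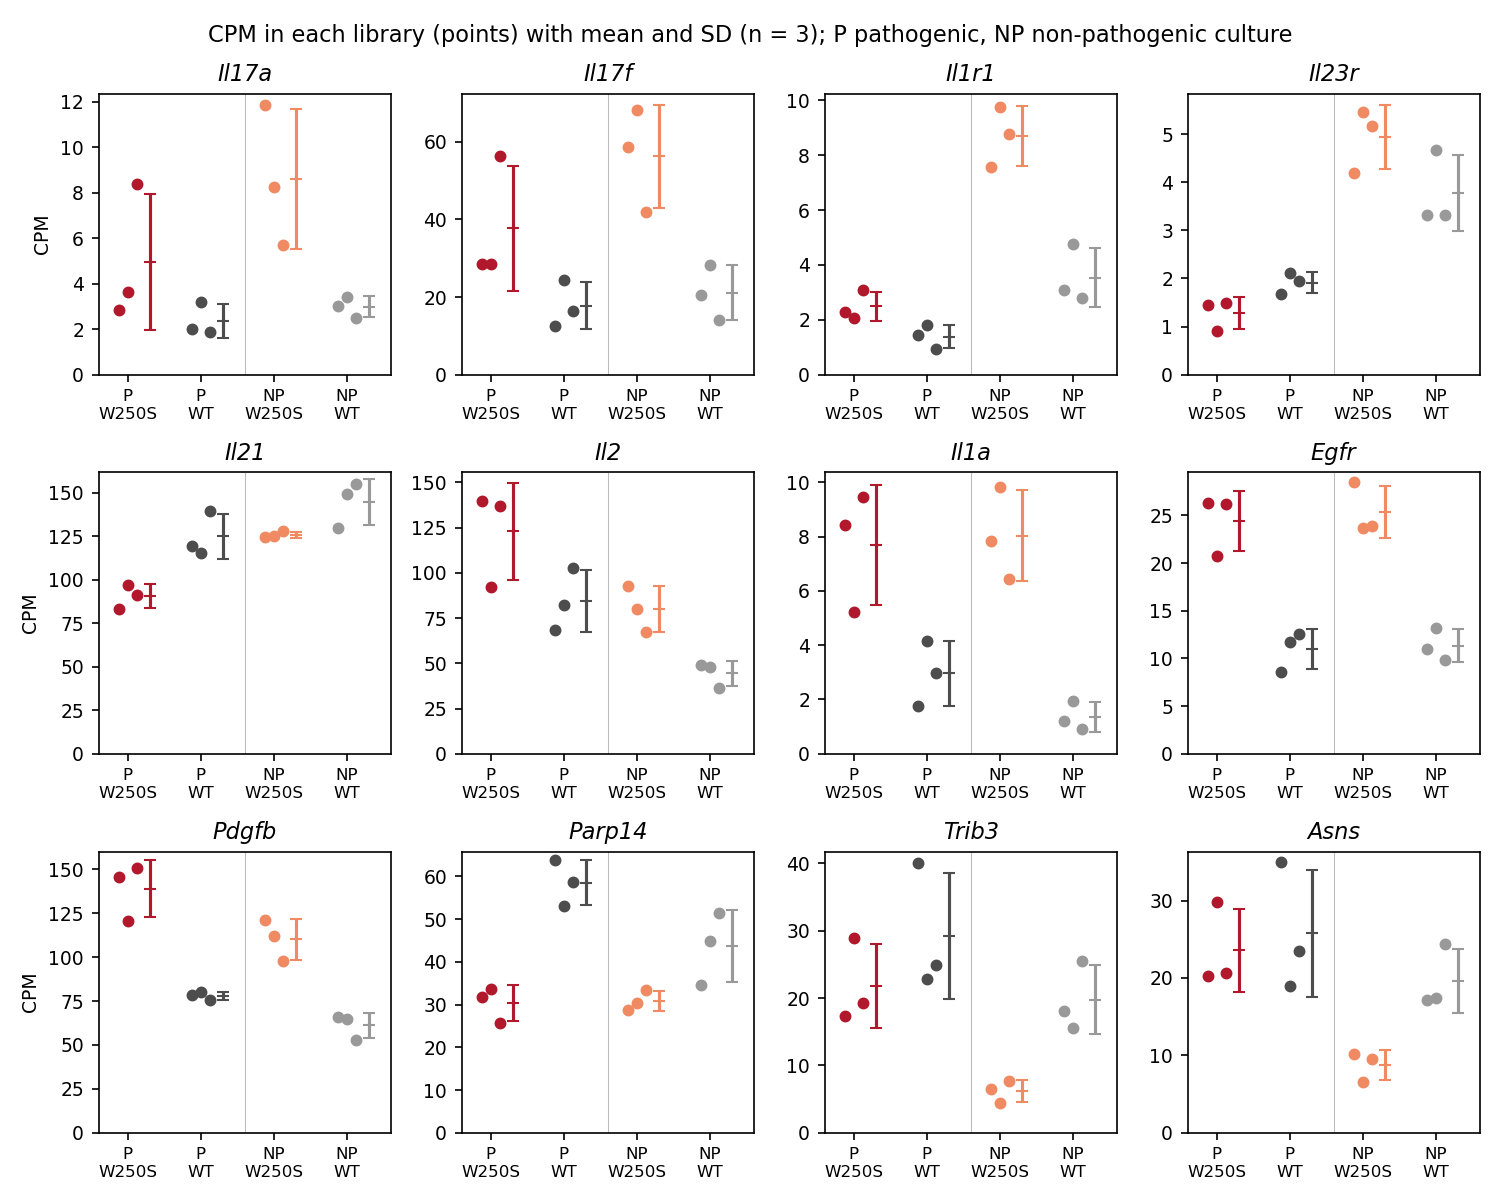
CPM of 12 genes in each of the 12 libraries (points), with the mean and SD of the 3 libraries of a group beside them; within each panel the pathogenic (P) W250S and WT groups stand left of the non-pathogenic (NP) W250S and WT groups. Il1a, Egfr and Pdgfb were higher and Parp14 lower in W250S in both cultures, while Trib3 and Asns were lower in W250S in the non-pathogenic culture and overlapped in the pathogenic one.

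Of the factors that set the Th17 state few passed. Rora, a nuclear receptor of the Th17 programme, stood at 0.05 and 0.31 (adjusted p = 0.814 and 0.055), Tbx21 at 0.04 and 0.24 (adjusted p = 0.889 and 0.14) and Foxp3 at 0.08 and -0.09 (adjusted p = 0.776 and 0.714). Maf, an activator of Il10 and Il21 in T cells, stood at -0.61 and -0.21 (adjusted p = 0.0669 and 0.214). Ikzf3, which encodes the Ikaros family factor Aiolos, had 13.2, 13.3 and 12.2 CPM in pathogenic W250S against 19.3, 18.6 and 21.3 CPM in WT libraries. Ikzf3 had 22.4, 24.9 and 27.2 CPM in non-pathogenic W250S against 24.0, 26.3 and 28.3 CPM in WT libraries. It fell by 0.58 in the pathogenic culture (SE 0.08, adjusted p = 0.00516), where the groups were apart, and stood at -0.07 in the non-pathogenic one (SE 0.09, adjusted p = 0.611), where they overlapped. Sgk1, the salt-sensing kinase known to stabilise IL-23 receptor expression in mouse Th17 cells, had 0.858, 1.06 and 0.972 CPM in pathogenic W250S against 1.91, 2.13 and 1.73 CPM in WT libraries. Sgk1 had 1.44, 2.33 and 3.75 CPM in non-pathogenic W250S against 1.76, 1.94 and 1.99 CPM in WT libraries. Sgk1 fell in the pathogenic culture by 0.57 (SE 0.11, adjusted p = 0.0261) and stood at 0.22 in the non-pathogenic one (SE 0.19, adjusted p = 0.48), with an interaction of -0.80 (-1.31 to -0.28, adjusted p = 0.534); the pathogenic call is lost without WT library 1, WT library 2, W250S library 1 or W250S library 3 (adjusted p = 0.0793, 0.0609, 0.124 and 0.133). Of 23 tested Th17 regulators 2 rose and 2 fell in pathogenic W250S cells, and 3 rose and 1 fell in non-pathogenic ones. None of 10 tested genes of the pathogenic Th17 signature passed in either culture, and of 15 tested ETS factor genes, Elf4 among them, none passed. Klf2 and Klf4, quiescence factors that Elf4 is known to control in CD8 T cells, stood at -0.42 and -0.02 in pathogenic and -0.44 and 0.0043 in non-pathogenic cells, and none passed.

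Most tested genes of the amino acid response, which ATF4 turns on when amino acids run short or the endoplasmic reticulum is stressed, fell in non-pathogenic W250S cells. Of 29 tested ATF4 target genes 0 passed in pathogenic cells, where 1.15% of all genes were lower. In non-pathogenic cells 18 of the 29 passed as lower in W250S, where 2.86% of all genes did, and none as higher. The list was chosen with earlier results of these data known, so its counts are a description. The median difference of the list was -0.10 in pathogenic and -0.33 in non-pathogenic cells. Trib3, a pseudokinase that feeds back on ATF4, had 17.3, 29.0 and 19.2 CPM in pathogenic W250S against 40.0, 22.8 and 24.9 CPM in WT libraries. Trib3 had 6.56, 4.47 and 7.69 CPM in non-pathogenic W250S against 18.2, 15.6 and 25.5 CPM in WT libraries. The pathogenic groups overlapped (-0.40, SE 0.20, adjusted p = 0.32), while in the non-pathogenic culture every W250S library was below every WT library (-1.52, SE 0.18, limma adjusted p = 0.00191). The interaction of Trib3, 1.12 (0.44 to 1.80), was the largest in size of all tested genes, with an unadjusted p of 0.00324 and an adjusted p of 0.534. Asns, asparagine synthetase, had 20.3, 29.7 and 20.6 CPM in pathogenic W250S against 34.9, 19.0 and 23.5 CPM in WT libraries. Asns had 10.2, 6.52 and 9.53 CPM in non-pathogenic W250S against 17.1, 17.4 and 24.4 CPM in WT libraries. It overlapped in the pathogenic culture (-0.10, adjusted p = 0.81) and not in the other (-1.09, SE 0.16, adjusted p = 0.00479), and its interaction was 0.98 (0.37 to 1.6). Chac1, a glutathione-degrading enzyme, fell by 1.07 in non-pathogenic W250S cells (adjusted p = 0.0198; adjusted p = 0.092 without WT library 3 and 0.108 without W250S library 2), Pck2, the mitochondrial enzyme of phosphoenolpyruvate synthesis, by 1.16 (adjusted p = 0.00255), and the glycine transporter gene Slc6a9 by 0.88 (adjusted p = 0.00309). The serine synthesis genes Phgdh, Psat1 and Psph fell by 0.40, 0.19 and 0.67 (adjusted p = 0.0211, 0.04 and 0.00395), and Gpt2, an alanine transaminase named among the largest non-pathogenic falls, by 1.06 (adjusted p = 0.0108). Atf4 itself stood at -0.15 (adjusted p = 0.107).

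For 12 of the 29 ATF4 target genes the interaction was positive at an unadjusted p below 0.05, beside 3.86% of all genes, and for 1 it was negative, beside 5.45%; no member passed the adjusted test, so that the cultures are not shown to differ for any of them. The same values can be read along the other axis. In W250S cells 17 of the 29 genes were higher in the pathogenic than in the non-pathogenic culture (1.23% of all genes), and in WT cells 1 of 29 (0.727%), with list medians of 0.39 in W250S and 0.22 in WT cells. The non-pathogenic count of 18 became 5 without W250S library 2, 6 without WT library 3 and 8 without W250S library 1, and was 10 under moderation without a trend; the list median stayed between -0.40 and -0.29 when each library was left out. In the pathogenic culture WT library 1 was the highest for Trib3, Asns, Pck2 and Chac1 among WT libraries, and W250S library 2 the highest among W250S libraries.

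Interferon-stimulated genes had a negative median W250S difference in both cultures, and few of them passed the test. Of 20 tested genes 5 passed as lower in pathogenic W250S cells, where 1.15% of all genes did, and 3 in non-pathogenic ones, where 2.86% did, and none as higher. This list too was chosen with earlier results of these data known. The median difference was -0.55 in pathogenic and -0.28 in non-pathogenic cells, and 18 and 17 of the 20 were negative. Parp14, an ADP-ribosyltransferase of the interferon response, had 31.7, 33.8 and 25.6 CPM in pathogenic W250S against 63.9, 53.2 and 58.7 CPM in WT libraries. Parp14 had 28.7, 30.3 and 33.4 CPM in non-pathogenic W250S against 34.6, 44.9 and 51.5 CPM in WT libraries. It did not overlap in either culture, falling by 0.93 (SE 0.10, limma adjusted p = 0.00185) and 0.47 (SE 0.12, adjusted p = 0.0351; up to 0.157 when 1 library was left out, the highest without W250S library 2). The guanylate-binding protein genes Gbp2, Gbp3 and Gbp4, which act against intracellular pathogens, fell by 0.66, 0.62 and 0.55 in pathogenic W250S cells (adjusted p = 0.00621, 0.0266 and 0.00516) and stood at -0.44, -0.32 and -0.07 in non-pathogenic ones (adjusted p = 0.0815, 0.199 and 0.84). Gbp5, outside that list, fell in both, by 0.66 and 0.70 (adjusted p = 0.0384 and 0.0237), calls lost without pathogenic W250S library 3 (adjusted p = 0.153) and without non-pathogenic W250S library 2 (adjusted p = 0.133). Over the alternatives run, the largest pathogenic limma adjusted p was 0.0589 for Gbp2, 0.148 for Gbp3 and 0.0378 for Gbp4. Gbp genes are close paralogs, and their counts may share reads.

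Isg15, a ubiquitin-like modifier, had 0.825, 2.41 and 1.07 CPM in pathogenic W250S against 6.65, 2.90 and 2.69 CPM in WT libraries. Isg15 had 0.246, 0.477 and 0.487 CPM in non-pathogenic W250S against 1.49, 1.15 and 3.06 CPM in WT libraries. The groups were apart in both, and the differences were -1.03 (SE 0.28, adjusted p = 0.0839) and -1.0 (SE 0.20, adjusted p = 0.0206; 0.0983 without W250S library 2). Zbp1, a sensor of nucleic acids, fell in non-pathogenic W250S cells by 0.46 (adjusted p = 0.0274), with -0.48 in pathogenic cells (adjusted p = 0.0935). Ifih1, the RNA sensor MDA5, stood at 0.08 and 0.25 and passed in neither culture (adjusted p = 0.586 and 0.0656). Stat2, the interferon signal transducer, fell in both, by 0.79 and 0.64 (adjusted p = 0.0338 and 0.0172; 0.195 without pathogenic W250S library 3 and 0.11 without non-pathogenic W250S library 2). The summed level of the list was 245 to 301 CPM in pathogenic W250S, 379 to 469 CPM in pathogenic WT, 239 to 310 CPM in non-pathogenic W250S and 278 to 381 CPM in non-pathogenic WT libraries. Pathogenic WT library 1 was the highest of all for Isg15, Trim30a and Stat2; without it 3 of 20 passed in pathogenic cells and the median was -0.46, and without W250S library 3 2 passed. In non-pathogenic cells 0 passed without WT library 3, W250S library 1 or W250S library 2, and 9 without WT library 1. The interaction was negative for all 20 genes, with a median of -0.24, beside -0.03 over all genes; 3 had an unadjusted p below 0.05 and none passed. That median rests on single libraries: it was -0.06 without pathogenic WT library 1, -0.10 and -0.14 without non-pathogenic WT library 1 and W250S library 3, and -0.39 without non-pathogenic WT library 3.

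**Figure D3:**
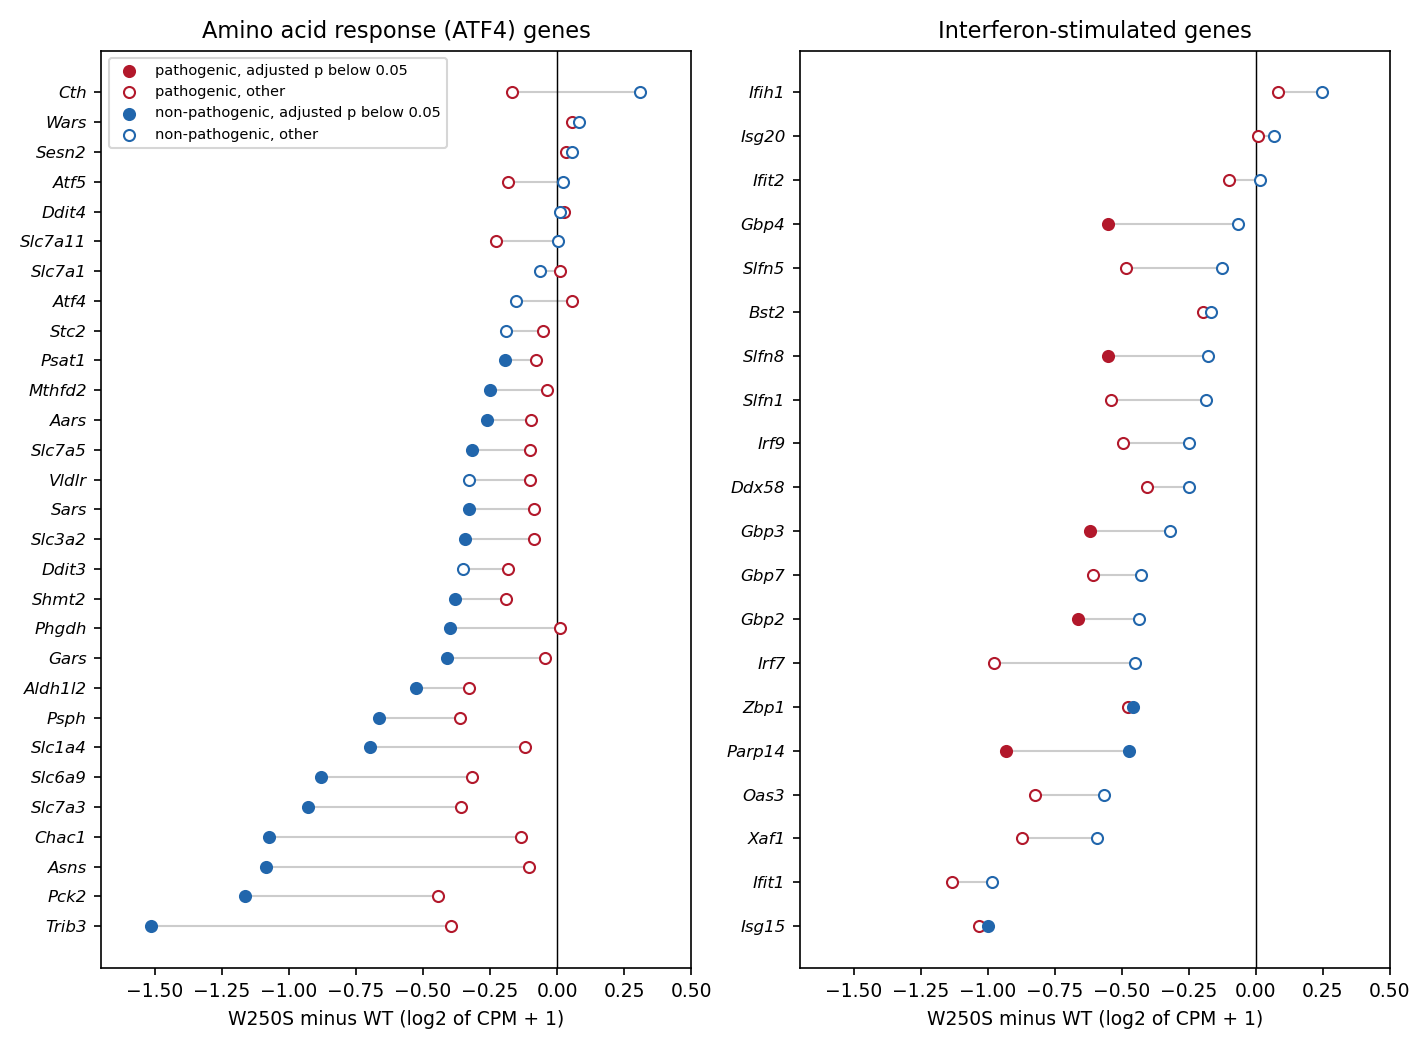
W250S minus WT difference, as log2(CPM + 1), of the tested ATF4 target genes (left) and interferon-stimulated genes (right); red marks the pathogenic and blue the non-pathogenic culture, and a filled symbol an adjusted p below 0.05. The 18 filled blue points on the left lie between -1.52 and -0.19, with no filled red point beside them, while most interferon-stimulated genes lie below 0 in both cultures.

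The interaction test called no gene. The median half-width of the unadjusted 95% interval was 0.27 log2 units over all tested genes and 0.24 over the 9484 genes averaging 5 CPM or more. Among the 10 genes with the smallest unadjusted p, none of which passed, were Ifi203, Rpl35, Il13, Ikzf3, Rplp1, Osgep, Rps16, Rpsa and Myo1g. Il13, a type 2 cytokine, had 1.30, 1.38 and 1.43 CPM in pathogenic W250S against 0.395, 0.450 and 0.465 CPM in WT, and at most 0.0847 CPM in any non-pathogenic library of either genotype. Il13 reached 1 CPM in the pathogenic W250S libraries alone and so entered the test through the group where it is high; its values are a description. Its pathogenic difference was 0.72 (SE 0.11, limma adjusted p = 0.00958; adjusted p = 0.0748 without W250S library 3) and its interaction 0.68 (0.37 to 0.99, adjusted p = 0.534). With non-pathogenic values so near 0 CPM, its non-pathogenic difference can only lie near 0, so that the interaction largely repeats the pathogenic difference. Under other settings Il13 alone fell below the interaction threshold, at an adjusted p of 0.0186 when no gene was filtered out and 0.0226 without a variance trend. The same limit holds there, so these values are not read as a difference between the cultures. Ifi203, an interferon-inducible gene of a family with close copies, had 1.37, 1.62 and 1.47 CPM in pathogenic W250S against 3.62, 2.54 and 2.73 CPM in WT libraries. Ifi203 had 2.67, 2.38 and 2.75 CPM in non-pathogenic W250S against 1.89, 2.27 and 2.55 CPM in WT libraries. It fell in pathogenic cells (-0.66, adjusted p = 0.0214; 0.123 without W250S library 3) and stood at 0.16 in non-pathogenic cells (adjusted p = 0.394), with an interaction of -0.82 (-1.17 to -0.47). Osgep, of the complex that modifies transfer RNA, stood at 0.34 and -0.33 (adjusted p = 0.128 and 0.115) with an interaction of 0.67 (0.33 to 1.00).

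The ribosomal protein genes named above, Rpl35, Rplp1, Rps16 and Rpsa, had interactions of 0.43, 0.39, 0.43 and 0.36. Each fell in non-pathogenic W250S cells, by 0.30, 0.23, 0.36 and 0.30 (adjusted p = 0.0285, 0.0399, 0.0172 and 0.0156), and stood between 0.06 and 0.16 in pathogenic ones. Each of these calls was lost under some alternative, with a largest adjusted p of 0.123, 0.164, 0.0941 and 0.092. Ribosomal protein genes have many processed copies in the genome that may share their reads, so these values are uncertain. Summed over ribosomal protein genes, non-pathogenic W250S libraries had 9033 to 9348 CPM and WT libraries 9943 to 10231 CPM, without overlap. In the pathogenic culture the sums were 9145.5 to 9652 CPM in W250S and 9205 to 9937 CPM in WT libraries, which overlapped. The named genes are part of this sum and are not separate observations. Myo1g, a myosin of lymphocyte membranes, had 40.8, 42.0 and 35.6 CPM in pathogenic W250S against 46.1, 45.4 and 42.5 CPM in WT libraries. Myo1g had 26.9, 26.7 and 27.0 CPM in non-pathogenic W250S against 39.1, 39.5 and 47.7 CPM in WT libraries. It was lower in W250S without overlap in both cultures, and did not pass in the pathogenic one (-0.18, SE 0.07, adjusted p = 0.214) but in the non-pathogenic one (-0.63, SE 0.08, adjusted p = 0.00277), with an interaction of 0.45 (0.21 to 0.68).

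**Figure D4:**
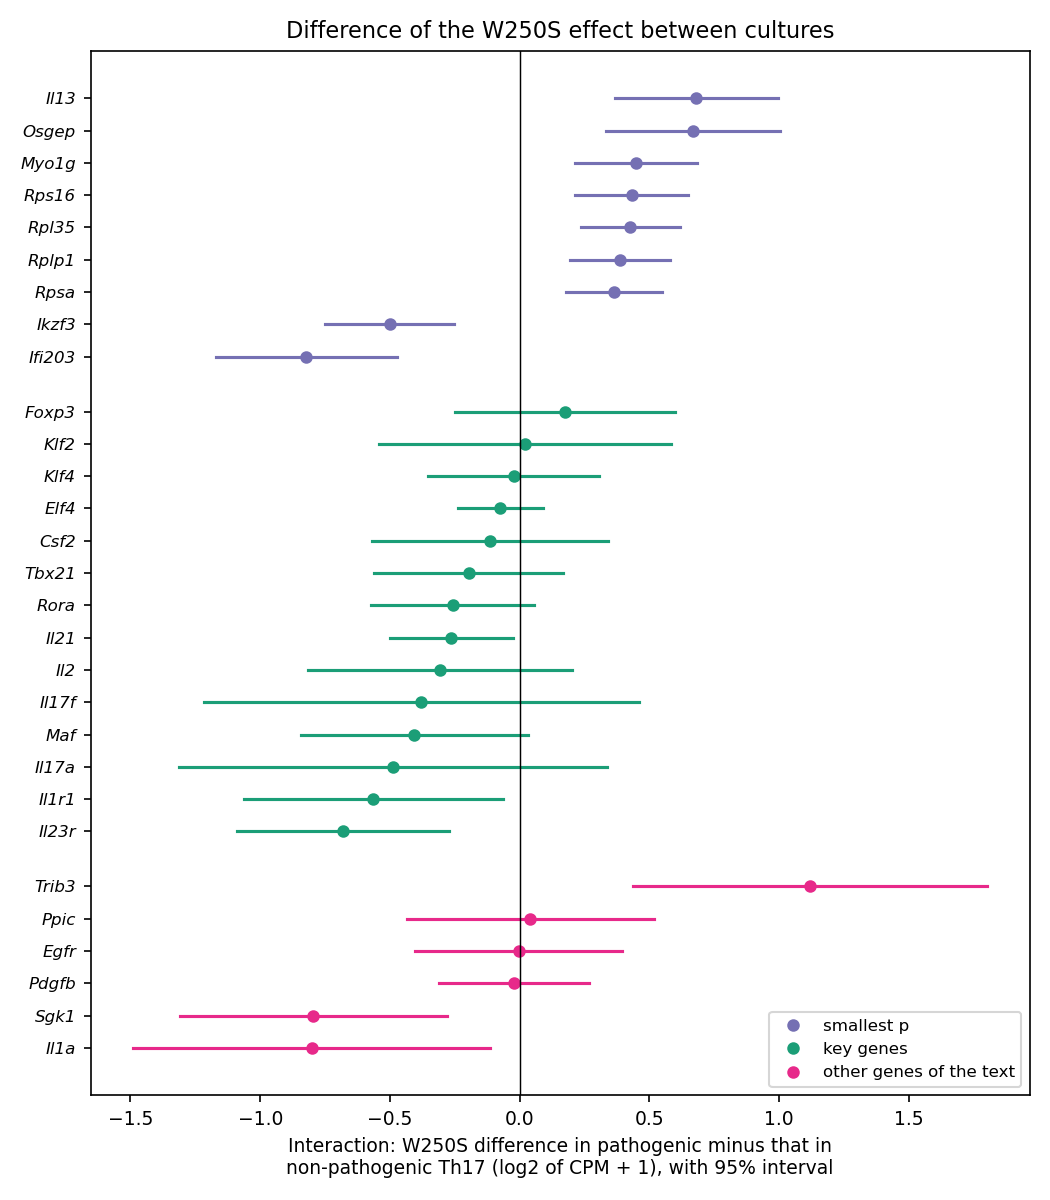
Interaction (W250S difference in pathogenic minus that in non-pathogenic cells, log2 scale) with its unadjusted 95% interval for 9 of the 10 genes with the smallest p, key genes that were tested and 6 other genes of the text. No interaction passed the adjusted test; Egfr, Pdgfb and Ppic lie within 0.05 of 0, and Trib3 is at 1.12.

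The cultures themselves differed within each genotype. Pathogenic minus non-pathogenic differences passed for 343 genes in W250S cells (2.62%; 161 higher, 1.23%, and 182 lower, 1.39%) and for 170 in WT cells (1.3%; 95 higher, 75 lower). Leaving out 1 library gave 161 to 267 in W250S cells, with 161, 225, 203 and 207 without non-pathogenic library 2 and 3 and pathogenic library 3 and 2, and 103 to 209 in WT cells, with 103 without pathogenic library 1 or non-pathogenic library 3 and 110 without pathogenic library 3. Without non-pathogenic library 1 the WT count was 135, and its larger side changed, with 63 higher and 72 lower. Maf was lower in the pathogenic culture in both genotypes, with differences of -2.14 in W250S cells (adjusted p = 4.97e-07) and -1.73 in WT cells (adjusted p = 7.94e-06). Il23r was lower (-1.38 and -0.70, adjusted p = 2.51e-05 and 0.0159) and Il1r1 likewise (-1.48 and -0.92, adjusted p = 8.14e-05 and 0.0103), while Csf2 was higher by 0.94 and 1.06 (adjusted p = 0.00236 and 0.00148). Lum was higher by 2.09 and 2.17 and Nfkbiz, an NF-kB cofactor needed for Il17a transcription in mouse Th17 cells, by 1.58 and 1.65 (adjusted p = 3.11e-07 and 3.25e-07 for Lum, 3.81e-07 and 3.25e-07 for Nfkbiz). Each of these genes differed between the cultures in both genotypes and in the same direction.

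The average of both cultures takes the mean of the pathogenic and the non-pathogenic W250S difference. A change in 1 culture alone can pass it, so a call is not a change shown in both cultures. The average W250S difference, fitted over 12 libraries, passed for 2142 genes (16.4%; 1239 higher, 903 lower), and with median-ratio scaling for 2374, 1080 higher and 1294 lower, so that the larger side again depends on the scaling. The larger side also changed without non-pathogenic WT library 1, with 988 higher and 1102 lower among 2090 genes. Leaving out each library in turn gave 1162 to 2477, with 1162, 1360 and 1317 without pathogenic W250S library 3, W250S library 1 and WT library 1, and 1314 and 1334 without non-pathogenic W250S library 2 and WT library 3. If libraries of a source vary together these p-values are too small and those of the interaction too large. Il17a (0.98, adjusted p = 0.00415), Il17f (1.21, adjusted p = 0.00124), Il2 (0.68, adjusted p = 0.00199) and Il1r1 (0.83, adjusted p = 0.000487) passed in the average, as did Elf4 (0.13, adjusted p = 0.0311) and Maf (-0.41, adjusted p = 0.0148). Of 20 interferon-stimulated genes 13 passed as lower and 1 as higher, where 6.91% and 9.48% of all genes did, and of 29 ATF4 target genes 16 as lower.

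Counts for the other gene groups stand beside 0.872% of all genes higher and 1.15% lower in pathogenic cells, and 3.96% higher and 2.86% lower in non-pathogenic cells. These groups were chosen with earlier results of these data known, so the counts are a description. Of 17 NF-kB subunit and brake genes 2 rose in pathogenic and 5 in non-pathogenic W250S cells: Nfkbiz (0.47 and 0.53, adjusted p = 0.0144 and 0.0237; 0.103 without pathogenic W250S library 3 and 0.129 without non-pathogenic W250S library 2) and Zc3h12a, which encodes the RNase regnase-1 (0.43 and 0.56, adjusted p = 0.0225 and 0.00419), rose in both, and Nfkbid, Rel and Tnfaip3 in the non-pathogenic culture (0.41, 0.33 and 0.30). The 2 became 0 without pathogenic W250S library 1 or W250S library 3 and 1 without WT library 1, and the 5 became 1 without non-pathogenic WT library 3, W250S library 1 or W250S library 2; without a variance trend they were 0 and 1. Of 20 genes listed under ribosome biogenesis 1 rose in pathogenic cells, Srm (0.40, limma adjusted p = 0.0172). Srm encodes spermidine synthase, which is not itself a ribosome biogenesis factor. In non-pathogenic cells 6 rose, among them Wdr12, Gnl3, Nop16 and Dkc1 (0.34, 0.31, 0.26 and 0.22). The 6 became 0 without a variance trend, without non-pathogenic WT library 3 and without any 1 of the non-pathogenic W250S libraries, and 9 without WT library 2; the median difference of the list stayed between 0.10 and 0.17. Of 12 TGF-beta target genes Id3, an inhibitor of E-protein factors, rose in both cultures (0.56 and 0.64, adjusted p = 0.00188 and 0.00109), and Smad7 and Ski, both brakes on TGF-beta signalling, were among those that rose in the non-pathogenic one (0.30 and 0.23, adjusted p = 0.0448 and 0.0427); the non-pathogenic count was 4, and 1 to 6 when each library was left out. Of 9 growth factor genes Pdgfb and Areg rose in pathogenic W250S cells (Areg 0.62, adjusted p = 0.0223), and in non-pathogenic ones Pdgfb and Hbegf rose (Hbegf 0.44, adjusted p = 0.0237) and Vegfa fell by 0.51 (adjusted p = 0.0409). Of 23 cholesterol synthesis genes 0 passed in pathogenic cells and 4 fell in non-pathogenic W250S cells, Fdps, Mvd, Ebp and Dhcr7. Of 33 cell cycle genes 1 rose in pathogenic and 2 in non-pathogenic W250S cells, with medians of 0.0036 and 0.02, near those of all genes. Cdkn1a, which encodes the cycle inhibitor p21, rose in both (0.46 and 0.39, adjusted p = 0.00995 and 0.0469), and Ccne2 in non-pathogenic cells (0.40, adjusted p = 0.0334).

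Groups of lineage, activation and metabolism genes held single calls. Of 15 STAT and SOCS genes 1 rose and 3 fell in pathogenic W250S cells, and 1 rose and 2 fell in non-pathogenic ones: Stat5a, which carries IL-2 signals, rose in both (0.34 and 0.25, adjusted p = 0.0235 and 0.0215), Socs2 fell in pathogenic cells (-0.80, adjusted p = 0.0208) and Socs1 in non-pathogenic cells (-0.31, adjusted p = 0.0434). Of 15 activation and checkpoint genes 1 rose in pathogenic cells, the adhesion receptor gene Cd44 (0.58, adjusted p = 0.00263), and in non-pathogenic cells 3 rose, among them Cd44 (0.64, adjusted p = 0.0153) and Tnfsf11, which encodes RANKL (0.68, adjusted p = 0.012), while Tnfrsf9, which encodes 4-1BB, fell (-0.66, adjusted p = 0.00892). Of 19 quiescence and homing genes Cdkn1b fell in pathogenic W250S cells (-0.40, adjusted p = 0.0162), and Foxp1 and Bach2 rose in non-pathogenic ones (0.33 and 0.28, adjusted p = 0.00735 and 0.0436). Of 10 Th1 genes 1 fell in pathogenic W250S cells and 1 in non-pathogenic ones, Il12rb2, a chain of the IL-12 receptor (-0.91, adjusted p = 0.0165). Of 8 genes on the Th2 list Il13 passed in pathogenic cells, through the filter described above, and Nfil3 and Crem fell in non-pathogenic ones. Of 13 Treg genes Nrp1 fell in pathogenic cells, while Ikzf2 rose and Tnfrsf9 and Tnfrsf18 fell in non-pathogenic ones. Of 28 glycolysis and hypoxia genes 0 passed in pathogenic cells and 3 fell in non-pathogenic ones, Aldoa, Aldoc and Vegfa. Of 14 heat shock genes the co-chaperone gene Bag3 rose in both cultures (0.38 in each, adjusted p = 0.0245 in each). Several of the pathogenic calls in these and the preceding groups are lost without pathogenic W250S library 3: the adjusted p is then 0.137 for Zc3h12a, 0.131 for Srm, 0.0984 for Areg and 0.123 for Cdkn1b. Over the alternatives run, the largest was 0.175 for Stat5a, 0.166 for Bag3 and 0.134 for Socs2 in pathogenic cells. Non-pathogenic calls were lost as well, with a largest adjusted p of 0.187 for Bach2, 0.105 for Cd44 and 0.192 for Socs1. For Cdkn1a, Ccne2, Vegfa, Ski, Smad7 and Il12rb2 it was 0.196, 0.156, 0.181, 0.189, 0.166 and 0.113. Of the 20 lists with a call in pathogenic and the 25 in non-pathogenic cells, 14 and 19 had none when some 1 library was left out. For none of these groups did any member pass the interaction test.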

How the data were processed

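RNA-seq of 12 Th17 libraries was used. The deposited values are CPM per gene, made by the authors; the CPM columns sum to 530489 to 542992 over the listed genes. Per the submitters' processing notes the build was mm10 and the tools included BWA, Bowtie2, MACS2, DESeq2 and Partek 10.0.21.0411; which of them made the CPM, and the annotation and strand setting, are not given in the sources used here. All per-sample columns were mapped to a group.

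From these values log2(CPM + 1) was tested with limma 3.58.1 in R 4.3.3 (lmFit, eBayes with trend) on genes reaching 1 CPM in 3 or more of the 12 libraries, with Benjamini-Hochberg adjustment over all 13074 and a threshold of 0.05. Each culture's W250S minus WT difference used its 6 libraries. A fold change is on the log2(CPM + 1) scale and understates the change of low genes. The code was tested on simulated data with known changes. Rows whose names are spreadsheet dates were left out.

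The interaction and average had been planned within cell sources. The columns carry a number alone, and in the naive cell table of the same study, whose headers name the samples, 0 of 6 column numbers were those of the titles. Same-numbered Th17 columns of the cultures did not deviate together (r from -0.20 to 0.15, 2 of 6 pairs over 0.1). Since the numbers do not identify sources, this cannot show whether libraries of a source vary together. Columns with different numbers had r from -0.42 to 0.38, both extremes among WT columns. With no known pairing the 12 libraries were fitted as independent, a choice made before calls were compared.

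Named genes follow a rule: key genes; the 12 largest each way among genes called in both cultures with a mean of at least 5 CPM; the 8 largest each way in each culture; the 10 smallest interaction p; and up to 4 called and 2 other members of each of 27 gene lists. Rn7sk, the Bcl2a1 genes, Phgdh, Psat1, Psph, Slc6a9 and Tnfaip3 were named after their values were seen. The members and lists were chosen with earlier results of these data known. Results for a few genes are not reported here.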

Additional observations from a re-analysis of the deposited data

How the results depend on the processing

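Every call in both cultures had the same direction under every alternative run, and none of the calls named by rule reversed. Interactions near 0 that were not called changed sign, such as those of Csf2 (-0.22 to 0.09), Klf2 (-0.18 to 0.30) and Klf4 (-0.11 to 0.06). Without a variance trend limma called 109 genes in pathogenic and 290 in non-pathogenic cells and 43 in both; median-ratio scaling gave 1710 in non-pathogenic cells and 211 in both. The interaction count became 1 with no filter and 1 without a trend, and 0 under the other alternatives. The gene was Il13 in each case, whose interaction largely repeats its pathogenic difference. Leaving out 1 library gave 42 to 365 pathogenic, 54 to 2139 non-pathogenic, 25 to 176 shared, 1162 to 2477 average and 0 to 0 interaction calls, and 161 to 267 and 103 to 209 culture calls in W250S and WT cells; the cause was not tested beyond the smaller number of libraries. Other alternatives used the column number, which only names the columns. A block by number within each culture gave 226 pathogenic, 1465 non-pathogenic and 153 shared calls. Means and differences of same-numbered columns across the cultures gave 2099 average and 0 interaction calls. Across the cultures 1 of 6 pathogenic libraries correlated best with its own number. Pseudocounts of 0.1 and 5, no filter and a minimum of 5 CPM gave 211 to 266 pathogenic and 640 to 890 non-pathogenic calls. Leaving out 1 library of either culture was chosen after seeing the data. A count test on reads recovered from the CPM steps was not run, since 85.8% to 86.5% of low values came out whole (tolerance 0.02). Depth limits genes below 1 CPM.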
